A study of Mus musculus with 20 samples.

Results

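The mitotic spindle, kinetochore and cytokinesis genes described here are 47 genes that act from the entry into mitosis to the separation of the daughter cells. They were chosen by symbol, by a rule on the known roles of their products that uses no measured value. Earlier results of these data were known at that choice. All 47 were found among the 49568 symbols counted in each library. RNA was sequenced from 2 populations sorted by flow cytometry from mouse bone marrow, LT-HSC (long-term haematopoietic stem cells) and the multipotent progenitors (MPP) they give rise to. The mice were untreated and 8 to 12 weeks old. They were labelled either as wild type C57BL/6 (WT) or as knocked out for Ahr (Ahr-KO), the gene of the aryl hydrocarbon receptor, a transcription factor that binds dioxins and other small molecules. Each of the 4 groups held 5 libraries. By the numbers in their labels these were WT LT-HSC 1, 4, 5, 6 and 8, Ahr-KO LT-HSC 1, 2, 3, 4 and 7, WT MPP 1 to 5 and Ahr-KO MPP 1 to 5. The labels say neither that the libraries of a group came from separate animals nor that animals were pooled, so p-values measure the spread between these libraries, part of which may be technical. Neither the knockout allele nor the sort markers is stated in the labels. The labels' extraction text names these sorted cells first and then speaks of RNA from DCs, 3 samples per treatment group, which does not match these libraries; the library kit is given in that same passage.

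The kinase CDK1 with a cyclin starts mitosis, kinetochores assembled on centromeric chromatin capture spindle microtubules, and the spindle checkpoint holds back the anaphase-promoting complex (APC/C) until every chromosome is attached. The APC/C then releases separase to cut cohesin, and the central spindle directs the contractile ring that divides the cell. The transcripts of most of these genes are low in resting cells and peak in G2 and M phase, when repression by the DREAM complex gives way to B-MYB and FOXM1. LT-HSC are known as mostly resting cells, and MPP as cells that divide more often. In RNA from sorted populations, fewer cells in mitosis and less RNA in each such cell cannot be told apart.

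Promoter sequence was a feature that had no part in choosing the genes. RefSeq windows on GRCm38.p6 from 250 bases before to 50 bases after the transcription start were matched for 41 of the 47 genes. Windows for Ccna2, Aurkb, Incenp, Dlgap5, Kif20a and Foxm1 were not used here. A pair of motifs was searched on both strands. The cell cycle homology region (CHR; TTTGAA or TTTAAA) is known as the element that DREAM and its successors bind, and CCAAT as the element of the factor NF-Y. The stretches below lie upstream of the RefSeq start and outside annotated exons. That of Pttg1 still lies within the gene as placed by GENCODE, which starts at chr11:43426251 on the minus strand. They show genes with both motifs in the window (Cdk1, Ccnb2, Top2a, Ube2c, Ect2 and Cdc20) and genes with neither or with 1 CCAAT alone (Pttg1, Melk and Fzr1), and they were chosen after the values of these genes had been seen. Capitals mark CHR and CCAAT matches on either strand, so that ATTGG is a CCAAT and TTCAAA a CHR read on the other strand.
Cdk1: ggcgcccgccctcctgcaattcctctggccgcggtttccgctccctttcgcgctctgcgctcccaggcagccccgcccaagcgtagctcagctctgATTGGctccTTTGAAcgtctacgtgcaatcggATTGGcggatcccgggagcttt
Ccnb2: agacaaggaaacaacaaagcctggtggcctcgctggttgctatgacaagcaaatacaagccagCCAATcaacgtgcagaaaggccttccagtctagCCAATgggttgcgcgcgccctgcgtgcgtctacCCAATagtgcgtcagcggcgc
Top2a: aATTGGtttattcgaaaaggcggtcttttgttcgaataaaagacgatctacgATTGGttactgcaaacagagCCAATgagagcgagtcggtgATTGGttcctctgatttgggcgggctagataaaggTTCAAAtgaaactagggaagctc
Ube2c: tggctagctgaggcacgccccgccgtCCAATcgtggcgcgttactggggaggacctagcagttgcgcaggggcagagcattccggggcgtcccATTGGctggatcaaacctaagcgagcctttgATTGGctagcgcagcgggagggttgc
Ect2: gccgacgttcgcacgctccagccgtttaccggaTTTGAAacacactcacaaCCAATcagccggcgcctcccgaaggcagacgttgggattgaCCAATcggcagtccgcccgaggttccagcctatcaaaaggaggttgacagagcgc
Cdc20: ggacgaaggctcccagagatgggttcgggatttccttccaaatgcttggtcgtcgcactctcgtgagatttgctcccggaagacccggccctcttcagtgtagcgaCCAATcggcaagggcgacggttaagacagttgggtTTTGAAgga
Pttg1: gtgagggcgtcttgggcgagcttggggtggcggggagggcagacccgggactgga
Melk: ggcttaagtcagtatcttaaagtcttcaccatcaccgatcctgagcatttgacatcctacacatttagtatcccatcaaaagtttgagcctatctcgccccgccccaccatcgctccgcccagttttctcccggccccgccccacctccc
Fzr1: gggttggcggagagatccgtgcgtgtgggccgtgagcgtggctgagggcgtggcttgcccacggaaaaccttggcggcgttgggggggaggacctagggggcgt

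The 9 stretches lie at chr10:69352939-69353088 (Cdk1, minus strand), chr9:70421555-70421704 (Ccnb2, minus strand), chr11:99024190-99024339 (Top2a, minus strand), chr2:164769748-164769897 (Ube2c, plus strand), chr3:27153879-27154025 (Ect2, minus strand), chr4:118437353-118437502 (Cdc20, minus strand), chr11:43426119-43426173 (Pttg1, minus strand), chr4:44300726-44300875 (Melk, plus strand) and chr10:81378517-81378620 (Fzr1, minus strand). In the whole windows CHR was found in 31 of the 41 genes (75.6%), against 27.6% of 32817 RefSeq promoter windows of the same length. CCAAT was found in 30 of the 41 (73.2%, against 37.4%), 2 or more CCAAT in 21 (51.2%, against 11.7%), and both CHR and CCAAT in 26 (63.4%, against 10.7%). Pttg1, Mad2l1, Melk, Nuf2, Nusap1 and Tacc3 held neither. The whole windows of Pttg1, Cdca3, Cdca8, Kif2c and Kif4 lie after the GENCODE starts of these genes. Sequence upstream of those starts was not searched, and Kif2c was counted as lacking CCAAT on such a window. The stretches hold only part of the matches of the windows. Cdk1 and Ect2 show 1 of 2 CHR and 2 of 3 CCAAT, and Top2a 1 of 2 CHR and 4 of 6 CCAAT. Cdc20 shows its CHR and 1 of 2 CCAAT, Ube2c 3 of 6 CCAAT without its CHR, and Ccnb2 its 3 CCAAT and neither of its 2 CHR. The CCAAT of Fzr1 lies outside its stretch. A match describes these letters and is not a measured binding site.

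Library totals ran from 13712668 to 21622653 counts, and the lowest count of any of the 47 genes in any library was 66, so that counting error is small beside the spread between libraries. Values per library are given as CPM, counts scaled to a fixed library total, on totals scaled by TMM, a normalisation that holds most genes level. They can be compared for 1 gene between libraries. Between genes only CPM per kilobase of exon can be compared. Ahr itself stood at 20.8 to 36.6 CPM in WT LT-HSC and at 18.5 to 29.7 CPM in the Ahr-KO LT-HSC libraries, and at 5.80 to 14.2 CPM in WT MPP and 9.80 to 19.2 CPM in Ahr-KO MPP. The ranges overlap in both populations, so the count over the whole gene did not separate the genotypes. Reads from outside a deleted part would still be counted, and with the allele unknown this count checks the genotype labels in neither direction. Genotypes are therefore those of the labels throughout. The summed level of 10 markers fixed for MPP (among them Flt3, Cd34 and Cd48) was 5702 to 11403 CPM in the MPP libraries and 510 to 2366 CPM in the LT-HSC libraries. For 10 LT-HSC markers (among them Procr, Slamf1 and Mecom) it was 998 to 1831 CPM in MPP and 2384 to 3106 CPM in LT-HSC, apart from WT LT-HSC 1 at 1333 CPM.

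WT LT-HSC 1 stood apart in the mitotic genes and outside them. Its sum over the 47 genes was 5417 CPM, where the other WT LT-HSC libraries lay between 3350.5 and 3926 CPM. Of the 47 genes, 36 were above all 4 other libraries of the group, as were 39.8% of all genes tested, and 8 were below all 4, as were 41.6% of all genes tested. The 8 were Espl1, Ckap5, Aspm, Foxm1, Mki67, Top2a, Kif4 and Incenp. Espl1, the gene of separase, showed the widest gap, at 3.14 CPM against 54.9 to 65.5 CPM. The genes above the others had a median exonic length of 4425.5 bases, and those below had 8881 bases. Across the 47 genes, the log2 ratio of this library to the mean of the others had a Spearman correlation of -0.55 with exonic length, against -0.20 to 0.15 for the other 4 libraries. Genes share a library and are not replicates, so this is a description. Among all 17118 genes with a length, deviations were taken from the mean of the whole group, WT LT-HSC 1 included. Their correlation with length was -0.32 in WT LT-HSC 1 and 0.18 to 0.27 in WT LT-HSC 4, 5, 6 and 8. As WT LT-HSC 1 is part of that mean, its tilt enters the values of the other 4 with the sign reversed. The 13 mitochondrially encoded transcripts of WT LT-HSC 1 summed to 3644 CPM, against 9470 to 11403 CPM in the other 4. The counts over the 47 genes below are therefore given with and without it, and the genes whose call between populations changes without it are named; the promoter and length medians are given with it only.

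**Figure D1:**
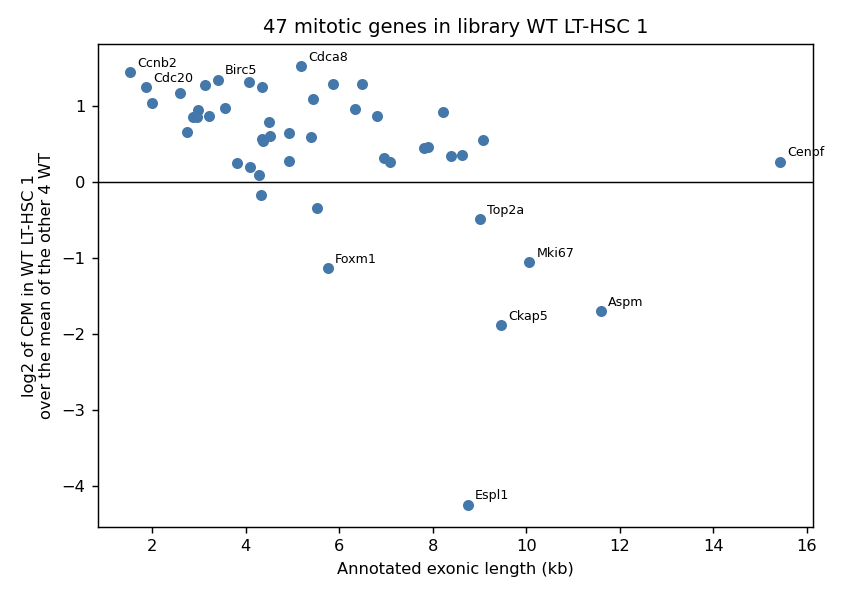
Log2 of the CPM in WT LT-HSC 1 over the mean CPM of WT LT-HSC 4, 5, 6 and 8 (vertical axis) against annotated exonic length in kilobases (horizontal axis); each point is 1 of the 47 genes. Points lie between -4.25 (Espl1) and 1.53 (Cdca8). Of the long genes, Ckap5, Aspm and Mki67 lie below 0, whereas Cenpf, the longest (0.27), Anln and Prc1 lie above it.

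**Figure D2:**
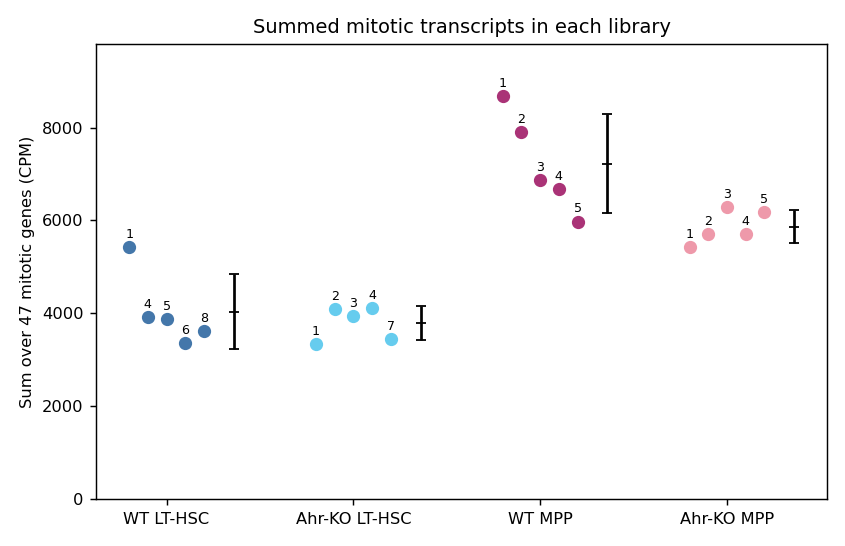
Sum of the CPM of the 47 genes in each library (vertical axis, from 0), by group; numbers are the library numbers of the labels, and black bars give the mean and SD of 5 libraries. All 10 MPP libraries lie above all 10 LT-HSC libraries, by a margin that runs from 5417 CPM in WT LT-HSC 1 to 5434 CPM in Ahr-KO MPP 1.

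Summed over the 47 genes, the mitotic transcripts were higher in MPP than in LT-HSC. The sums were 5417, 3926, 3875, 3350.5 and 3614 CPM in WT LT-HSC 1, 4, 5, 6 and 8, and 3338, 4088, 3949, 4103 and 3447 CPM in the libraries Ahr-KO LT-HSC 1, 2, 3, 4 and 7. They were 8684, 7913, 6862, 6685 and 5976 CPM in WT MPP 1 to 5, and 5434, 5715, 6294, 5713 and 6178 CPM in Ahr-KO MPP 1 to 5. Neither MPP group overlapped an LT-HSC group, and WT LT-HSC 1 fell just short of Ahr-KO MPP 1. The highest 4 of the MPP sums were all WT, but WT MPP 5 lay below Ahr-KO MPP 3 and 5, so that the genotypes overlapped. In CPM per kilobase of exon, Ccnb2 (124) and Cdc20 (129) had the highest mean levels in WT MPP, and Cenpf (8.23) and Aspm (7.88) the lowest.

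**Figure D3:**
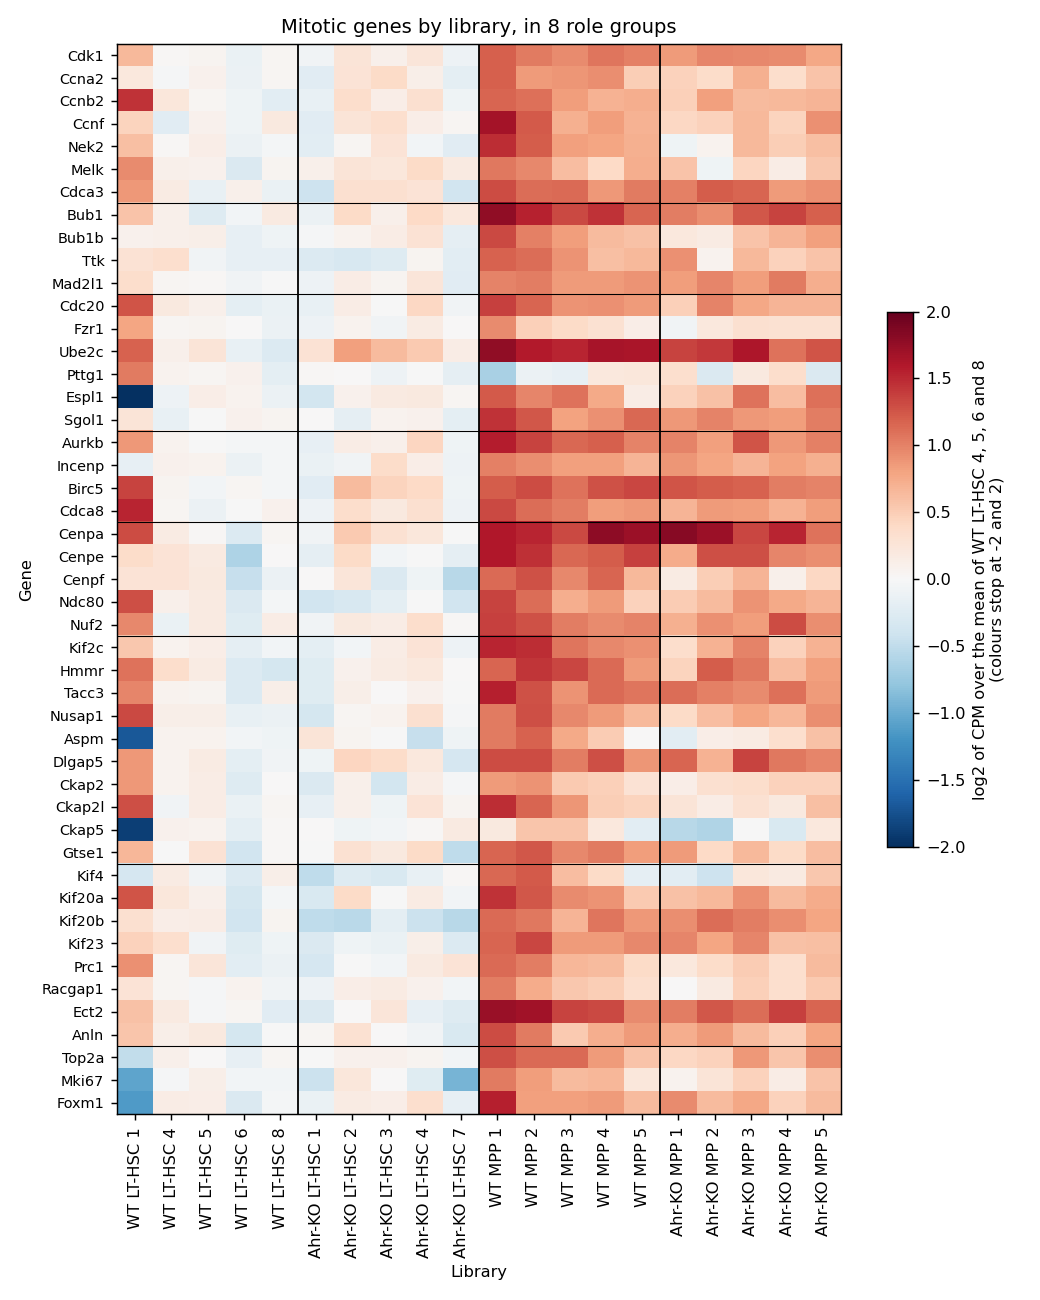
Log2 of the CPM of each gene in each library over its mean CPM in WT LT-HSC 4, 5, 6 and 8 (colour); columns are the 20 libraries in their 4 groups, rows the 47 genes in 8 role groups divided by lines. The MPP columns are red for nearly all rows apart from Pttg1 and Ckap5, and the column of WT LT-HSC 1 departs from the other LT-HSC columns in both directions.

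The first comparison asked how the mitotic genes differ between MPP and LT-HSC of the same genotype. In WT, 36 of the 47 genes were called higher in MPP (adjusted p under 0.05 by edgeR's quasi-likelihood test over all 17416 genes tested), against 11% of all genes, and none was called lower, against 11.3%. The median log2 fold change of the 47 genes was 0.89, beside 0.01 for all genes tested, and 46 of the 47 were positive (51% of all genes). For 26 genes every MPP library lay above every LT-HSC library, as for 8.32% of all genes. Without WT LT-HSC 1, 45 genes were called higher (15.2% of all genes), 43 did not overlap (13.9% of all genes) and the median was 1.02; Pttg1 and Ckap5 were those not called. In Ahr-KO, 30 of the 47 were called higher (12.5% of all genes) and none lower (10.7%), with a median of 0.66 and 46 positive (51.1%), and 32 did not overlap (11.1% of all genes). The spread is estimated over all groups, and without WT LT-HSC 1 the count in Ahr-KO was 38 (17% of all genes), Ccnb2, Ccnf, Cdca8, Ckap2, Espl1, Gtse1, Mki67 and Prc1 being added. The genes it added in WT were Ccnb2, Cdca8, Ckap2, Ckap2l, Espl1, Fzr1, Melk, Ndc80 and Nusap1. With 1 library left out at a time, 32 of the 36 calls in WT and 23 of the 30 in Ahr-KO were kept in all 20 fits. Ahr-KO LT-HSC 2 and 3 carried more neutrophil transcripts (1702 and 1987 CPM over 11 markers) than the other LT-HSC libraries (87.2 to 464 CPM). With both left out, 25 were called in Ahr-KO and the median was 0.70. The share of all genes called in that fit is not given here, so the count of 25 has none to be set against. Neutrophil markers were also higher in MPP than in LT-HSC of WT (8 of 11 called, 5 without WT LT-HSC 1, sums of 1639 to 3024 CPM against 87.2 to 464 CPM) and 1 of 11 was called in Ahr-KO, and other lineage markers moved with the population as well. T and NK cell markers summed to 241 to 343 CPM in WT MPP against 43.2 to 104 CPM in the WT LT-HSC, and to 261 to 423 CPM against 49.7 to 108 CPM in Ahr-KO. Megakaryocyte and platelet markers summed to 566 to 807 CPM in WT MPP against 1542 to 1800 CPM in the WT LT-HSC, and to 442 to 832 CPM against 1420 to 1739 CPM in Ahr-KO. In each genotype 1 of 8 T and NK cell markers tested was called higher and 1 lower, and of 9 megakaryocyte and platelet markers tested 5 were called lower in WT and 8 in Ahr-KO. Of 9 B cell markers 6 were called higher in WT and 5 in Ahr-KO, and of 10 erythroid markers 2 were called lower in each. Of all genes, 11% were called higher in WT and 12.5% in Ahr-KO, and 11.3% and 10.7% lower. The T and NK cell counts and the neutrophil count in Ahr-KO lie near those shares. No marker of these 5 lists was at 0 in all libraries of a group, and their part in the mitotic result was not tested.

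**Figure D4:**
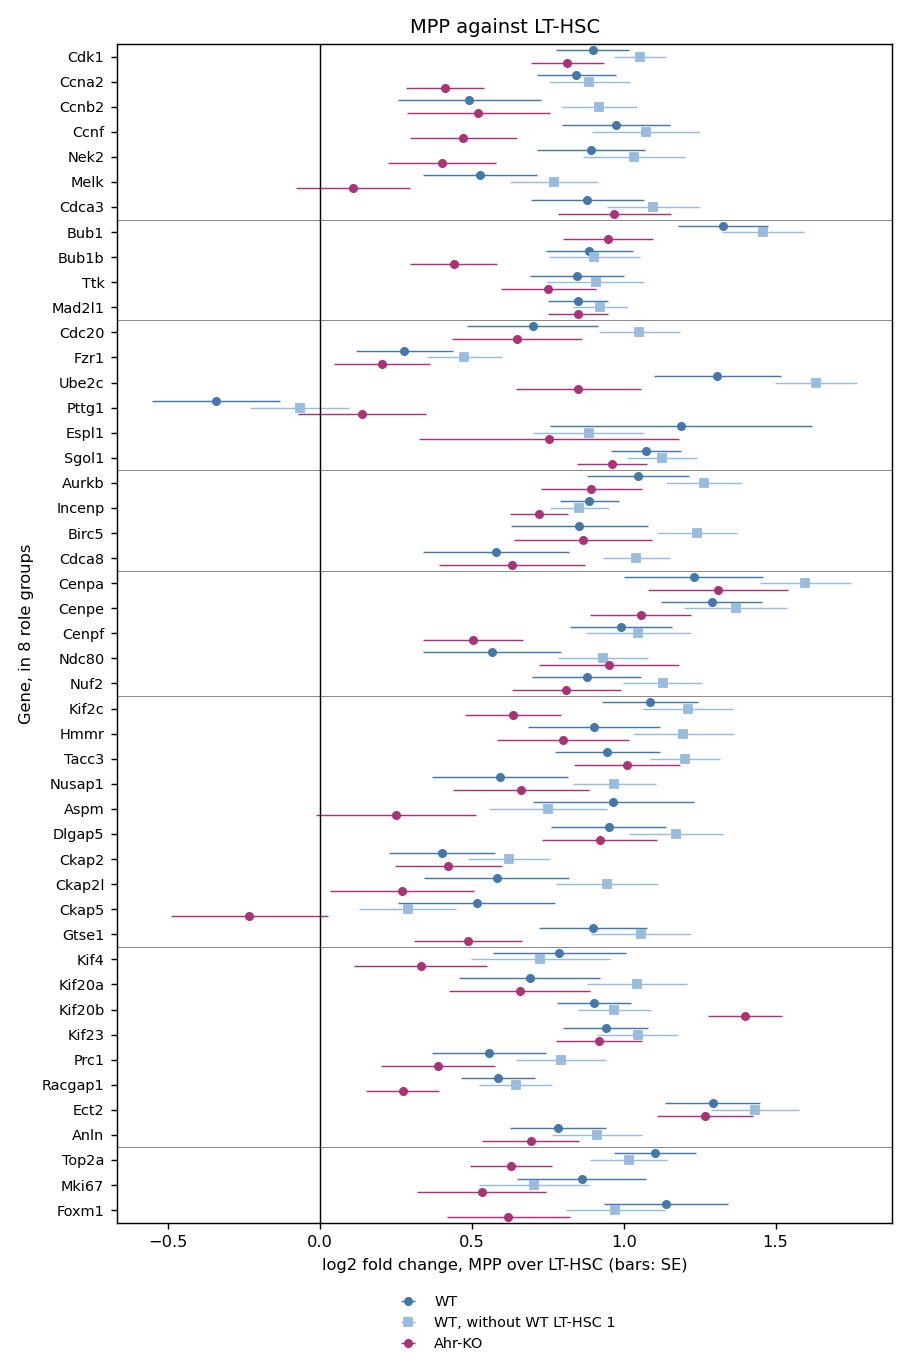
Log2 fold change of MPP over LT-HSC (horizontal axis) for the 47 genes in 8 role groups (vertical axis), in WT, in WT without WT LT-HSC 1 and in Ahr-KO; points are edgeR estimates and bars their standard errors. Nearly all points lie to the right of 0, with Pttg1 in WT (-0.34, and -0.07 without WT LT-HSC 1) and Ckap5 in Ahr-KO (-0.23) to the left.

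Among the cyclins and kinases of mitotic entry, 5 of 7 were called higher in MPP in WT and 3 of 7 in Ahr-KO. Cdk1 (chr10:69335146-69352938, minus strand), the kinase that drives mitosis, stood at 138, 89.5, 91.4, 80.0 and 89.7 CPM in WT LT-HSC 1, 4, 5, 6 and 8 and at 83.7, 104, 94.2, 104 and 81.3 CPM in the libraries Ahr-KO LT-HSC 1, 2, 3, 4 and 7. It stood at 200.2, 181, 169, 184 and 176 CPM in WT MPP 1 to 5 and at 159, 173, 171, 169 and 150.3 CPM in Ahr-KO MPP 1 to 5; libraries of each group are listed in this order from here on. Every MPP library was above every LT-HSC library, and WT LT-HSC 1 was the highest of the LT-HSC. The log2 fold change was 0.90 ± 0.12 (SE) in WT (adjusted p = 2.22e-05, edgeR) and 0.81 ± 0.12 in Ahr-KO (adjusted p = 5.87e-05). Ccna2 (chr3:36564865-36572150, minus strand), cyclin A2, a partner of CDK1 and CDK2, read 144, 123, 132, 115 and 128 CPM in the WT LT-HSC and 107, 150.5, 162, 134 and 108 CPM in the Ahr-KO LT-HSC. In MPP it read 285, 225, 229, 238 and 174 CPM in WT and 171, 161, 204, 159 and 184 CPM in Ahr-KO. The WT groups did not overlap, whereas Ahr-KO LT-HSC 3 was above the lowest 2 Ahr-KO MPP libraries. Its log2 fold change was 0.84 ± 0.13 in WT and 0.41 ± 0.13 in Ahr-KO, both called (adjusted p = 9.68e-05 and 0.0263), the latter lost in 10 of 20 fits with 1 library left out (up to 0.125). Cdca3, which takes part in degrading the CDK1 inhibitor WEE1, was called in Ahr-KO at 0.97 ± 0.19. Melk, a kinase of the AMPK family, had the second lowest change in Ahr-KO at 0.11 ± 0.19 (adjusted p = 0.744). Ccnb2 (cyclin B2) and Melk were not called in WT with all libraries (adjusted p = 0.148 and 0.0501) and were called without WT LT-HSC 1 at 0.92 ± 0.13 and 0.77 ± 0.14. Ccnf (cyclin F, which directs proteins to degradation) and Nek2 (a kinase that parts the centrosomes) were called in WT and, with all libraries, not in Ahr-KO; without WT LT-HSC 1 Ccnf was called there too (0.47 ± 0.16, adjusted p = 0.0345).

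All 4 spindle checkpoint genes were called higher in MPP in both genotypes. Bub1b (chr2:118598211-118641591, plus strand) encodes BUBR1, which holds back the APC/C. Its level was 147, 149, 149.6, 124 and 131 CPM in the WT LT-HSC and 137, 145, 153, 169.9 and 122 CPM in the Ahr-KO LT-HSC. It was 344, 279, 248, 215 and 209 CPM in WT MPP and 161, 155, 205, 221 and 243 CPM in Ahr-KO MPP. WT MPP lay wholly above WT LT-HSC, and in Ahr-KO the populations overlapped. The change was 0.89 ± 0.14 in WT and 0.44 ± 0.14 in Ahr-KO (adjusted p = 1.60e-04 and 0.0307), and the call in Ahr-KO was lost in 12 of 20 fits with 1 library left out (up to 0.134). Bub1, a kinase that recruits checkpoint proteins to the kinetochore, had the highest log2 fold change of all 47 genes in WT, at 1.33 ± 0.15 (2.51-fold; adjusted p = 2.92e-06), and 0.95 ± 0.15 in Ahr-KO. Its libraries lay between 37.8 and 67.0 CPM in WT LT-HSC and between 101 and 154 CPM in WT MPP. Mad2l1, the APC/C inhibitor MAD2, rose in both genotypes, by 0.85 ± 0.10 and 0.85 ± 0.10. Ttk, the kinase MPS1 at the head of the checkpoint, rose as well.

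Genes of the APC/C and of sister separation had 3 of 6 called higher in each genotype. Cdc20 (chr4:118432901-118437352, minus strand), the activator that starts anaphase, read 278, 134, 125, 102 and 106 CPM in the WT LT-HSC and 105, 129.7, 116, 155 and 111 CPM in the Ahr-KO LT-HSC. In MPP it read 299.5, 261, 217, 221 and 211 CPM in WT and 163, 231, 199, 186 and 186 CPM in Ahr-KO. WT LT-HSC 1 was the only LT-HSC library within the range of the MPP libraries. The change was 0.70 ± 0.21 in WT with it (adjusted p = 0.0234), 1.05 ± 0.13 without it and 0.65 ± 0.21 in Ahr-KO (adjusted p = 0.0342). With 1 library left out its call was lost in 6 of 20 fits in WT (up to 0.0745) and in 11 of 20 in Ahr-KO (up to 0.107). Ube2c, the ubiquitin-conjugating enzyme of the APC/C, rose by 1.31 ± 0.21 in WT and 0.85 ± 0.21 in Ahr-KO. The largest log2 fold change without WT LT-HSC 1 was also that of Ube2c, at 1.63 ± 0.14. Part of this count may not be its own, since 22.8% of its exonic bases also lie in exons of Tnnc2 on the other strand and the counting is not stated to use strand. Sgol1, shugoshin, which guards centromeric cohesion, had the smallest p of the 47 genes in WT (log2 fold change 1.07 ± 0.11, adjusted p = 1.63e-06).

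Pttg1, Fzr1 and Espl1 of the same group were not called in either genotype with all libraries. Pttg1 encodes securin, which keeps separase inactive. It stood at 66.3, 33.8, 33.0, 34.1 and 28.2 CPM in the WT LT-HSC and 32.6, 32.5, 30.1, 31.9 and 28.5 CPM in the Ahr-KO LT-HSC. In MPP it stood at 20.6, 29.7, 28.9, 37.2 and 37.7 CPM in WT and 40.5, 26.3, 36.9, 41.2 and 26.4 CPM in Ahr-KO. Apart from WT LT-HSC 1, the LT-HSC libraries lay inside the range of the MPP libraries. The change was -0.34 ± 0.21 in WT (adjusted p = 0.276), -0.07 ± 0.16 without WT LT-HSC 1 and 0.14 ± 0.21 in Ahr-KO. The 95% interval without WT LT-HSC 1 ran from -0.39 to 0.25, which leaves out the median of the 47 genes. Fzr1 encodes CDH1, the APC/C activator of late mitosis and G1, which is needed in resting cells too. Its change was 0.28 ± 0.16 in WT (adjusted p = 0.237), and it was called without WT LT-HSC 1 at 0.47 ± 0.12. Espl1 was likewise called without WT LT-HSC 1, at 0.88 ± 0.18 and, in Ahr-KO, 0.75 ± 0.17.

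In the chromosomal passenger complex, which corrects faulty attachments and later governs abscission, 3 of 4 genes were called higher in each genotype. Aurkb (chr11:69045647-69051664, plus strand), its kinase, stood at 147, 85.3, 80.7, 79.1 and 78.6 CPM in the WT LT-HSC and 71.9, 89.9, 87.0, 109 and 76.5 CPM in the Ahr-KO LT-HSC. In MPP the values were 241, 206, 179.9, 185 and 161 CPM in WT and 161, 142, 193, 148 and 162 CPM in Ahr-KO. Every MPP library but Ahr-KO MPP 2 was above every LT-HSC library, and that library fell below WT LT-HSC 1. The change was 1.05 ± 0.17 in WT and 0.89 ± 0.17 in Ahr-KO (adjusted p = 1.36e-04 and 5.63e-04). Incenp (chr19:9872296-9899551, minus strand), the scaffold, read 96.8, 116, 114, 99.8 and 106 CPM in the WT LT-HSC and 99.3, 104, 140.2, 119.7 and 101 CPM in the Ahr-KO LT-HSC. It read 219, 206, 191, 193 and 174 CPM in WT MPP and 201, 187, 175, 190.2 and 178 CPM in Ahr-KO MPP. All MPP libraries were above all LT-HSC libraries, with changes of 0.89 ± 0.10 and 0.72 ± 0.10 (adjusted p = 1.95e-06 and 1.90e-05). Birc5 (survivin) was called in both genotypes. Cdca8 (borealin), which was highest of all LT-HSC libraries in WT LT-HSC 1, was called in both once that library was left out.

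Of the 5 centromere and kinetochore genes, 4 were called higher in WT and 5 in Ahr-KO. Cenpa (chr5:30666777-30674830, plus strand), the histone H3 variant that marks the centromere, read 149, 68.1, 61.9, 50.3 and 62.3 CPM in the WT LT-HSC and 58.0, 87.0, 74.8, 70.7 and 60.2 CPM in the Ahr-KO LT-HSC. In MPP it read 184, 175, 152, 210.0 and 198 CPM in WT and 214, 199, 154, 174 and 129 CPM in Ahr-KO. Its highest library of all was Ahr-KO MPP 1, and in neither genotype did the populations overlap. The change was 1.23 ± 0.23 in WT and 1.31 ± 0.23 (2.48-fold) in Ahr-KO (adjusted p = 6.24e-04 and 3.26e-04). Cenpf (chr1:189640606-189688086, minus strand), a large protein of the outer kinetochore, read 74.0, 74.1, 70.3, 44.8 and 56.5 CPM in the WT LT-HSC and 61.4, 72.2, 50.3, 57.9 and 41.7 CPM in the Ahr-KO LT-HSC. Its MPP values were 135, 148, 119, 137 and 96.2 CPM in WT and 68.8, 86.7, 98.9, 65.8 and 82.0 CPM in Ahr-KO. The WT populations were apart, whereas Ahr-KO MPP 1 and 4 lay below the highest Ahr-KO LT-HSC library. The change was 0.99 ± 0.17 in WT and 0.50 ± 0.17 in Ahr-KO (adjusted p = 2.39e-04 and 0.0334). The call in Ahr-KO was lost in 13 of 20 fits with 1 library left out (adjusted p up to 0.138), with voom (0.0531) and with length offsets (0.0626). Cenpe, the kinesin that moves chromosomes to the spindle equator, rose by 1.29 ± 0.17 in WT and 1.06 ± 0.17 in Ahr-KO. Ndc80 and Nuf2 encode the pair that binds microtubules end-on. Nuf2 was called in both genotypes, and Ndc80 was not called in WT with all libraries (adjusted p = 0.0825).

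Of 10 genes that act on spindle microtubules, 6 were called higher in WT and 5 in Ahr-KO. Kif2c, a kinesin that takes microtubules apart at the centromere, rose by 1.09 ± 0.16 in WT. Tacc3, which steadies spindle fibres, rose by 0.95 ± 0.17 in WT and 1.01 ± 0.17 in Ahr-KO. Dlgap5, which bundles fibres near chromosomes, rose by 0.92 ± 0.19 in Ahr-KO. Hmmr was called in both genotypes too; Nusap1 was called in Ahr-KO, and Aspm (a spindle pole protein) and Gtse1 in WT. Gtse1 was called in Ahr-KO too without WT LT-HSC 1 (0.49 ± 0.15, adjusted p = 0.0187). The call of Nusap1 in Ahr-KO was lost in 14 of 20 fits with 1 library left out. Ckap2 and Ckap2l were called in neither with all libraries. Ckap5 (chr2:91526762-91620664, plus strand) encodes chTOG, a microtubule polymerase that also works outside mitosis. It read 52.5, 205, 204, 169 and 196 CPM in the WT LT-HSC and 194, 182, 185, 196 and 219.6 CPM in the Ahr-KO LT-HSC. In MPP it read 222, 283, 284, 224 and 166 CPM in WT and 131, 127, 192, 157 and 224 CPM in Ahr-KO. The populations overlapped in both genotypes. Its changes were 0.52 ± 0.26 in WT, 0.29 ± 0.16 without WT LT-HSC 1 and -0.23 ± 0.26 in Ahr-KO (adjusted p = 0.169, 0.185 and 0.577).

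All 8 genes of the central spindle and cytokinesis were called higher in WT and 5 of 8 in Ahr-KO. Racgap1 (chr15:99620496-99651656, minus strand) encodes a subunit of centralspindlin, which places the division plane. It stood at 151, 128, 123, 131 and 119 CPM in the WT LT-HSC and 116, 137, 139, 132 and 121 CPM in the Ahr-KO LT-HSC. In MPP it stood at 254, 208, 181, 176 and 158 CPM in WT and 126, 141, 173, 158 and 180.0 CPM in Ahr-KO. WT MPP was wholly above WT LT-HSC, and the Ahr-KO populations overlapped. The change was 0.59 ± 0.12 in WT (adjusted p = 0.00152) and 0.27 ± 0.12 in Ahr-KO (adjusted p = 0.117). Ect2, which switches on RhoA at the division plane, rose by 1.29 ± 0.16 in WT and 1.27 ± 0.16 in Ahr-KO. Kif20b, a kinesin needed for abscission, showed the largest change and the smallest p of the 47 in Ahr-KO. It read 61.9, 54.4, 54.8, 38.0 and 51.6 CPM in the WT LT-HSC and 35.1, 34.2, 43.5, 36.7 and 33.8 CPM in the Ahr-KO LT-HSC, and 109, 103, 79.5, 105 and 90.5 CPM in WT MPP and 94.7, 108, 101, 94.3 and 85.4 CPM in Ahr-KO MPP. All Ahr-KO LT-HSC libraries but number 3 were below all WT LT-HSC libraries, and the MPP of the genotypes overlapped. The change was 1.40 ± 0.12 (2.64-fold; adjusted p = 1.72e-07) in Ahr-KO and 0.90 ± 0.12 in WT (adjusted p = 2.31e-05). Kif20a and Kif23 (kinesins of the central spindle) and Anln (anillin, a scaffold of the ring) were called in both genotypes. Kif4, a chromosome-bound kinesin, and Prc1, which crosslinks antiparallel microtubules, were called in WT and, with all libraries, not in Ahr-KO. Prc1, but not Kif4, was called in Ahr-KO too without WT LT-HSC 1 (0.39 ± 0.14, adjusted p = 0.0370). In WT the calls of Kif20a, Prc1 and Kif4 were lost in 14, 13 and 2 of 20 fits with 1 library left out, and in Ahr-KO that of Kif20a in 17. The difference between the genotypes is the interaction tested below.

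The 3 genes of chromosome structure and transcription were called higher in WT, and Top2a and Foxm1 also in Ahr-KO. Top2a (chr11:98992943-99024189, minus strand), the topoisomerase that untangles sister DNA, read 237, 358, 335, 296 and 341 CPM in the WT LT-HSC and 331, 352, 355, 346 and 320.2 CPM in the Ahr-KO LT-HSC. In MPP it read 811, 730.5, 727, 603 and 496 CPM in WT and 445, 457, 608, 486 and 637 CPM in Ahr-KO. The 2 populations were apart in both genotypes, with changes of 1.10 ± 0.14 and 0.63 ± 0.13 (adjusted p = 8.75e-06 and 0.00195). Mki67 (chr7:135689784-135716361, minus strand) encodes Ki-67, which coats mitotic chromosomes and is used as a marker of dividing cells. Its values were 78.9, 159.9, 178, 158 and 158 CPM in the WT LT-HSC and 121, 191, 165, 138 and 85.5 CPM in the Ahr-KO LT-HSC. In MPP they were 335, 290.3, 254, 259 and 192 CPM in WT and 171, 195, 224, 181 and 241 CPM in Ahr-KO. WT LT-HSC 1 and Ahr-KO LT-HSC 7 were the lowest libraries. The change was 0.86 ± 0.21 in WT (adjusted p = 0.00583) and 0.53 ± 0.21 in Ahr-KO (adjusted p = 0.0773). In Ahr-KO it was called without WT LT-HSC 1 (0.53 ± 0.17, adjusted p = 0.0208), with voom (0.0219) and with length offsets (0.00206). Foxm1 (chr6:128362967-128376146, plus strand), the transcription factor of the G2 and M phase genes, read 20.4, 49.8, 48.8, 36.7 and 43.5 CPM in the WT LT-HSC and 40.7, 50.2, 48.7, 56.3 and 39.9 CPM in the Ahr-KO LT-HSC. In MPP it read 131, 79.3, 78.8, 80.2 and 69.5 CPM in WT and 85.8, 69.5, 76.8, 61.3 and 69.3 CPM in Ahr-KO. All MPP libraries were above all LT-HSC libraries, WT LT-HSC 1 being the lowest and WT MPP 1 the highest. The change was 1.14 ± 0.20 in WT and 0.62 ± 0.20 in Ahr-KO (adjusted p = 4.41e-04 and 0.0325). The call in Ahr-KO was lost in 12 of 20 fits with 1 library left out (adjusted p up to 0.106) and without Ahr-KO LT-HSC 2 and 3 (0.0870).

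The next comparison asked whether the mitotic genes differ between the genotypes in MPP. None of the 47 was called (smallest adjusted p = 0.342, Cenpf, edgeR over 16077 genes), and among all genes 3 were called higher (0.0187%) and 2 lower (0.0124%). The fold changes of Ahr-KO over WT were negative for 46 of the 47, against 49.1% of all genes, and their median was -0.28, beside 0.005 for all genes tested. At an unadjusted p under 0.05, 28 of the 47 were lower in Ahr-KO and none was higher, against 3.49% and 3.13% of all genes. The 47 genes share the same libraries, so they are not independent observations. The WT MPP libraries used here are also those of the comparison with LT-HSC above. Without WT MPP 1, which held the highest value of all 10 MPP libraries for 33 of the 47 genes, 12 were lower at an unadjusted p under 0.05, 44 were negative and the median was -0.22. The count was 16 without WT MPP 2, 16 without Ahr-KO MPP 1 and 18 without Ahr-KO MPP 2. Without WT MPP 5 it was 30 and the median was -0.34. In 1 fit of all 20 libraries the count was 13, and with the replicate number as a block it was 16. Shares of all genes were not taken in these altered fits, so their counts have none to be set against.

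Cenpf had the smallest p in MPP, with a log2 fold change of -0.66 ± 0.14 (unadjusted p = 3.49e-04, adjusted p = 0.342, edgeR). By its values above, 4 of the 5 WT MPP libraries were above all Ahr-KO MPP libraries, and WT MPP 5 was below Ahr-KO MPP 3. DESeq2's Wald test called it (log2 fold change -0.66, adjusted p = 0.0055), the only one of the 47 among 50 genes it called. Nek2 read 137, 114, 87.5, 85.7 and 81.1 CPM in WT MPP and 46.6, 52.0, 77.6, 69.3 and 75.1 CPM in Ahr-KO MPP. It was the 1 gene of the 47 whose Ahr-KO libraries were all below the WT libraries, as were 0.56% of all genes, and its change was -0.66 ± 0.17 (adjusted p = 0.554). Gtse1, a microtubule-binding protein that restrains p53, had the next smallest p, at -0.47 ± 0.12 (adjusted p = 0.534). At the other end, Pttg1 was the only gene with a positive value, 0.15 ± 0.19, and Kif20b came next at -0.01 ± 0.11. The changes of the marker genes fixed for naming were -0.15 ± 0.08 for Cdk1, -0.27 ± 0.11 for Aurkb, -0.27 ± 0.16 for Foxm1 and -0.39 ± 0.14 for Mki67 (adjusted p = 0.770, 0.687, 0.793 and 0.618). For each of these 4 the genotypes overlapped.

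By role, the median log2 fold change in MPP was lowest for the spindle microtubule genes (-0.40, all 10 negative) and the entry cyclins and kinases (-0.39, all 7 negative). It was -0.36 for the 3 genes of chromosome structure and transcription, -0.33 for the checkpoint and -0.29 for the central spindle, with no positive gene in these groups. The kinetochore group stood at -0.23, the APC/C group at -0.23 with Pttg1 positive, and the passenger complex at -0.19. Markers of other cells were also compared between the genotypes in MPP, where 49.1% of all genes were negative. The 9 B cell markers were all positive in Ahr-KO over WT. Their summed levels overlapped, at 57.6 to 114 CPM in WT and 87.1 to 169 CPM in Ahr-KO. Of 10 megakaryocyte and platelet markers 9 were tested and none was positive, 1 being called lower, as were 0.0124% of all genes. Their sums were 566 to 807 CPM in WT and 442 to 832 CPM in Ahr-KO, so the Ahr-KO range held the whole WT range. No marker of either list was at 0 in all libraries of a group, and the part of these cells in the mitotic result was not tested. Gene length was looked at within each group, by the correlation of a library's deviation from its group mean with length. It ran from -0.33 (WT MPP 5) to 0.26 (WT MPP 1) in WT. In Ahr-KO it ran from -0.22 (Ahr-KO MPP 2) to 0.30 (Ahr-KO MPP 5). Taken within a group, these values do not compare the genotypes. With gene length fitted as an offset, the median was -0.29, and 44 of 47 were negative.

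**Figure D5:**
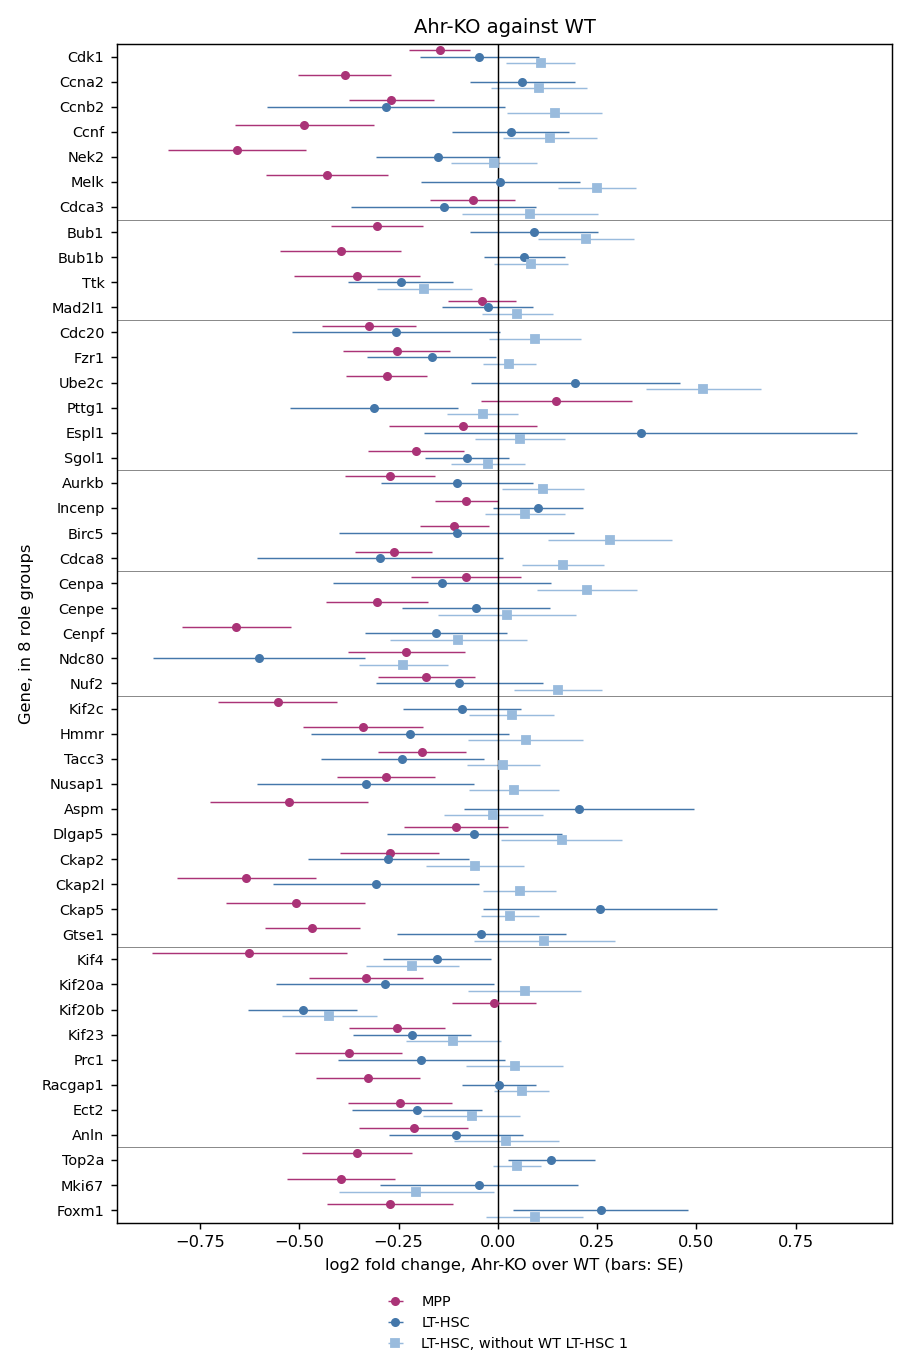
Log2 fold change of Ahr-KO over WT (horizontal axis) for the 47 genes in 8 role groups (vertical axis), in MPP, in LT-HSC and in LT-HSC without WT LT-HSC 1; points are edgeR estimates and bars their standard errors. In MPP 46 points lie to the left of 0, whereas the LT-HSC points lie on both sides and shift to the right without WT LT-HSC 1; no point passed the adjusted threshold.

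In LT-HSC the same comparison gave no direction that held without WT LT-HSC 1. None of the 47 was called by edgeR over 16065 genes (smallest adjusted p = 0.460, Kif20b) or by DESeq2's Wald test, while 1 gene in the table was called higher (0.00622%) and none lower (0%). The median was -0.10, beside 0.00079 for all genes, with 34 negative (49.9% of all genes) and 13 positive. Without WT LT-HSC 1 the median was 0.06 (all genes 0.02), with 34 positive (52.5% of all genes) and 13 negative, and again none was called, against 0.428% of genes called higher and 0.814% called lower. Kif20b had an unadjusted p under 0.05 both ways: -0.49 ± 0.14 with all libraries (unadjusted p = 0.00420) and -0.42 ± 0.12 without WT LT-HSC 1 (unadjusted p = 0.00408, adjusted p = 0.0938). Of its values above, 4 of 5 WT LT-HSC libraries were above all Ahr-KO LT-HSC libraries, and WT LT-HSC 6 was not. Ndc80 was the other gene with an unadjusted p under 0.05 (4.02% of all genes were lower at that level), at -0.60 ± 0.27. It read 98.2, 43.2, 45.8, 33.0 and 39.0 CPM in WT and 31.0, 32.3, 34.9, 39.9 and 30.8 CPM in Ahr-KO, and without WT LT-HSC 1 its change was -0.24 ± 0.11 (unadjusted p = 0.0554).

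The highest change in LT-HSC with all libraries was that of Espl1, at 0.36 ± 0.55, and it was 0.06 ± 0.11 without WT LT-HSC 1. Ttk stood at -0.25 ± 0.13 (unadjusted p = 0.0925). Without WT LT-HSC 1, Ube2c and Melk were higher in Ahr-KO at an unadjusted p under 0.05, as were 9.67% of all genes, and Kif20b was lower, as were 9.23%. Ube2c read 124, 58.8, 65.6, 49.7 and 45.4 CPM in WT and 67.1, 96.4, 85.2, 79.1 and 60.8 CPM in Ahr-KO, and its change without WT LT-HSC 1 was 0.52 ± 0.14 (adjusted p = 0.0919). Melk was the 1 gene whose Ahr-KO libraries were then all above the WT libraries, as were 4.56% of all genes, at 0.25 ± 0.10 (adjusted p = 0.200). With that library in, the changes were 0.20 ± 0.26 and 0.01 ± 0.20. For Cdk1, Aurkb, Cenpf, Foxm1 and Mki67 the changes were -0.05 ± 0.15, -0.10 ± 0.19, -0.16 ± 0.18, 0.26 ± 0.22 and -0.05 ± 0.25. They were 0.11 ± 0.09, 0.11 ± 0.10, -0.10 ± 0.17, 0.09 ± 0.12 and -0.21 ± 0.20 without WT LT-HSC 1, so that Cdk1 and Aurkb changed sign. Transcripts of other cells were high in Ahr-KO LT-HSC 2 and 3. With all libraries, 10 of 10 neutrophil markers tested and 11 of 11 monocyte and macrophage markers were positive in Ahr-KO over WT. Of all genes, 49.9% were negative. The marker sums reached 1987 and 2615 CPM in Ahr-KO against at most 464 and 738 CPM in WT, through Ahr-KO LT-HSC 2 and 3. In Ahr-KO LT-HSC 1, 4 and 7 they were only 120 to 203 CPM and 461 to 584 CPM. No such marker was at 0 in all libraries of a group. In Ahr-KO LT-HSC 3 the connective tissue markers summed to 4162 CPM, against 33.2 to 133 CPM in the other 9. With Ahr-KO LT-HSC 2 and 3 and WT LT-HSC 1 all left out, the median was -0.02, with 20 positive and none called.

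Whether the genotype difference itself differed between MPP and LT-HSC was tested as an interaction over all 20 libraries. None of the 47 was called (smallest adjusted p = 0.598, Kif20b), nor was any gene in the table by edgeR (0% in either direction), and DESeq2's Wald test called none of the 47. Positive values mean that Ahr-KO over WT was higher in MPP than in LT-HSC. Their median was -0.11, and 12 of the 47 were positive (51.9% of all genes). Kif20b (0.50 ± 0.17) and Pttg1 (0.48 ± 0.30) were the highest, and Ckap5 (-0.75 ± 0.37) and Aspm (-0.71 ± 0.37) the lowest. At an unadjusted p under 0.05, Ccna2 (-0.43 ± 0.18), Top2a (-0.47 ± 0.19) and Bub1b were lower and Kif20b higher, against 2.66% and 3.8% of all genes. Without WT LT-HSC 1 the median was -0.37, with 3 positive (49.1% of all genes), and 20 of the 47 were lower at an unadjusted p under 0.05, against 3.42% of all genes, and Kif20b was higher, against 4.95%, while none was called (smallest adjusted p = 0.174, Ube2c at -0.78 ± 0.18). The median also moved with gene length as an offset, to -0.006, with 23 of 47 positive.

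Other genes of the same machinery, from lists by role, varied in how far they moved between MPP and LT-HSC. Condensin, which compacts mitotic chromosomes, had 7 of 8 genes called higher in WT (median 0.62) and 5 of 8 in Ahr-KO (0.52). Ncapg led in both, at 1.04 ± 0.10 (adjusted p = 5.87e-07) and 0.90 ± 0.10. Of 26 other spindle and cytokinesis genes, 21 were called higher in each genotype (medians 0.80 and 0.83), among them Spag5, at 1.26 ± 0.16 and 1.21 ± 0.16. Of 33 other kinetochore and centromere genes, 19 were called higher in WT and 21 in Ahr-KO (medians 0.49 and 0.62), with Knl1 at 1.22 ± 0.17 in WT. The switch that controls CDK1 had 8 of 10 called higher in WT and 5 of 10 in Ahr-KO, led by Pkmyt1, an inhibitory kinase of CDK1, at 1.21 ± 0.13 and 1.80 ± 0.13. Cohesin and the APC/C core also serve other stages of the cycle. Of 11 cohesin genes only Cdca5 (sororin) was called in each genotype (medians 0.09 and 0.004), and of 16 APC/C core subunits and regulators 1 was called in WT and 3 in Ahr-KO (medians 0.08 and 0.17). Among 47 S phase genes, 21 were called higher and 1 lower in WT, and 27 higher in Ahr-KO (medians 0.36 and 0.41). Over all genes 11% were called higher in WT and 12.5% in Ahr-KO, and the counts for cohesin in both genotypes and for the APC/C core in WT did not exceed those shares. Without WT LT-HSC 1 (15.2% and 17% of all genes) the counts called higher in WT and Ahr-KO were 6 and 7 for condensin, 23 and 22 for other spindle genes, 28 and 27 for other kinetochore genes, and 8 and 7 for the entry switch. They were then 1 and 2 for cohesin (median -0.07 in WT), 4 and 6 for the APC/C core (with 2 called lower in Ahr-KO) and 34 and 35 for S phase.

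Between the genotypes none of these genes was called in MPP or in LT-HSC. In MPP the medians were -0.23 for condensin (0 of 8 positive), -0.24 for the other spindle and cytokinesis genes (3 of 26 positive), -0.11 for the other kinetochore genes (8 of 33 positive) and -0.13 for cohesin (1 of 11 positive). They were -0.03 for S phase (19 of 47 positive) and -0.06 for the APC/C core (5 of 16 positive). The median of all genes was 0.005. Ccnb1, cyclin B1, had the smallest p of the entry switch, at -0.53 ± 0.15 (adjusted p = 0.56, edgeR). Kif15, a spindle kinesin, stood at -0.36 ± 0.09 (adjusted p = 0.522), and Smc4, a condensin core subunit, at -0.25 ± 0.07 (adjusted p = 0.554). Cdkn1a, the CDK inhibitor p21, had the smallest p among the regulators of this transcription in both populations. Its change was 0.94 ± 0.20 in MPP (adjusted p = 0.342) and 0.69 ± 0.22 in LT-HSC (adjusted p = 0.474). Cdkn1a was also called higher in MPP than in LT-HSC, by 1.90 ± 0.21 in WT and 2.17 ± 0.21 in Ahr-KO.

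The promoter motifs were set beside the changes. In WT, the 26 genes with both CHR and CCAAT had a median change of MPP over LT-HSC of 0.89, and the 15 with a window but not both had 0.85. In Ahr-KO the medians were 0.58 and 0.81. For Ahr-KO over WT in MPP they were -0.33 (from -0.66 to -0.06) and -0.21 (from -0.66 to 0.15). These medians carry no test and the ranges overlap. Pttg1, with neither motif, had the lowest change of MPP over LT-HSC of the 47 genes in WT. In Ahr-KO the lowest was that of Ckap5 (-0.23), which has both motifs, and Melk, with neither, came second. The sequences of Pttg1 and Melk were printed above after their values had been seen. Others with neither motif were higher in MPP: Tacc3 by 0.95 in WT and 1.01 in Ahr-KO, and Mad2l1 by 0.85 in each. Nuf2 was called higher in both genotypes and Nusap1, with all libraries, in Ahr-KO alone. Bub1, without a CHR, and Kif20b, without a CCAAT, had the highest change in WT and in Ahr-KO, respectively. By exonic length, the 24 genes of at least 4934 bases and the 23 shorter ones had medians of -0.27 and -0.28 for Ahr-KO over WT in MPP, and 0.90 and 0.85 for MPP over LT-HSC in WT. Other counts are uncertain for the same reason, since 29.3% of the exonic bases of Kif20a lie in exons of Cdc23, 15.1% of those of Kif4 in Pdzd11, 12.5% of those of Ccna2 in Exosc9 and 11.1% of those of Prc1 in Rccd1, each on the other strand.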

How the data were processed

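The authors deposited read counts per gene symbol, 1 column per library, in separate tables for LT-HSC and MPP. Per the submitters' processing notes, Trimmomatic 0.36, STAR 2.5.2b, Subread 1.5.0p3 (featureCounts), DESeq2 1.12.4 and GRCm38.p5 were used; whether counting used strand is not stated, and the TruSeq kit of the labels' protocols stands in a passage on other cells. From these counts, edgeR 4.0.16 quasi-likelihood tests (R 4.3.3) were run after filterByExpr and TMM scaling, p-values being adjusted by Benjamini-Hochberg across every gene tested, with a threshold of 0.05. The genotypes were compared within each population's own 10 libraries, and the populations and the interaction in 1 fit of 20. A replicate number was not used to pair libraries. The standard error is the log2 fold change over the root of F. Scripts were tested on simulated data. All 47 genes passed the filter in every comparison. The members, lists and tests were chosen with earlier results of these data known. Values per library were given for Cdk1, Aurkb, Cenpf, Foxm1, Mki67 and the gene of highest mean CPM in each role group; then, per comparison, the 3 smallest p and the 2 highest and 2 lowest fold changes; and per list the 2 called genes of smallest p, or the smallest p where none was called. Other genes with values were chosen after those were seen. Alternatives were DESeq2 1.42.0, limma 3.58.1 voom, other filters, a replicate block, gene length as an offset, and leaving out libraries; leaving out Ahr-KO LT-HSC 2 and 3, with or without WT LT-HSC 1, was chosen after seeing the data. Gene positions are GENCODE M21 on GRCm38.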

Additional observations from a re-analysis of the deposited data

Results flagged for a closer look

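Of 56 groups of 5 libraries tested for a sample far from the others, 8 were picked out, where chance alone picks about 1 in 20. In WT LT-HSC 1 these were the sum over the 47 genes (5417 CPM) and the levels of Cdk1 (138 CPM), Aurkb (147 CPM), Cdc20 (278 CPM) and Cenpa (149 CPM), which were above the other 4 libraries. The levels of Mki67 (78.9 CPM) and Ckap5 (52.5 CPM) in the same library were below them. In WT MPP 1, Foxm1 (131 CPM) was above the other 4 WT MPP libraries. The 56 groups are measures of the same libraries, and the sum holds the named genes. They are not independent, so the number picked out cannot be judged by the rate of 1 in 20.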

How the results depend on the processing

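The median change of Ahr-KO over WT in LT-HSC, -0.10, was 0.05 with voom and ran from -0.20 to 0.06 as each library was left out. There the change of Cdk1 was 0.10 with voom, 0.033 without WT LT-HSC 1 and Ahr-KO LT-HSC 2 and 3, and -0.12 to 0.11 with 1 library out; that of Aurkb was 0.083, 0.082 and -0.20 to 0.11; and that of Mki67 was -0.21 to 0.086 with 1 library out. Melk in LT-HSC, 0.0060, was -0.0066 with DESeq2's size factors and with its Wald test, -0.0040 with no filter, -0.016 with length offsets, -0.0099 in 1 fit of all libraries, -0.0079 without Ahr-KO LT-HSC 2 and 3, and -0.11 to 0.25 with 1 library out; Espl1 was -0.023 without WT LT-HSC 1 and Ahr-KO LT-HSC 2 and 3. In MPP, Kif20b stood at 3.34e-05 with a filter of 5 CPM, 0.031 with voom, 0.024 with length offsets and -0.071 to 0.037 with 1 library out, and DESeq2's Wald test called 1 of the 47. With length offsets the median of MPP over LT-HSC in Ahr-KO was 0.78 and the interaction of Cdk1 0.034. The interaction median was -0.32 with voom and -0.37 to -0.078 with 1 library out, and the interaction of Mki67 was 0.11 without those 3 libraries. The number called higher in MPP ran from 32 to 45 in WT and from 23 to 38 in Ahr-KO with 1 library out. Of these fits, only that without WT LT-HSC 1 has its share of all genes given above. The cause of the shifts in this section was not tested. Same-numbered libraries of different groups had correlations of -0.18 to 0.18 in their deviations from the group means. This cannot exclude pairing, since libraries of the same animal need not deviate alike. The labels do not say what the numbers mean. The replicate block could use only libraries with shared numbers, 14 of 20 in the fit of 4 groups and 4 of 10 in LT-HSC, so its values change the model and the libraries together. With it 22 genes were called higher in WT MPP, where Cenpf, Foxm1 and Mki67 were no longer called (adjusted p = 0.0614, 0.117 and 0.141, edgeR). The share of all genes called with the block is not given, so the count of 22 has none to be set against. Melk in MPP over LT-HSC of Ahr-KO was -0.020. In LT-HSC the block gave a median of -0.35, Mki67 0.21, Ube2c -0.23 and Melk -0.28. Depth was no limit at counts of at least 66.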
